A study of Vitis rotundifolia with 36 samples.

Results

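The comparison described here set the third tissue layer of mature berries of Alachua, a thick-skinned purple muscadine grape (Vitis rotundifolia), against the same layer of Supreme, a thin-skinned purple one. It was defined by the sample titles and used 6 of the 36 RNA sequencing libraries of the series, 3 for each cultivar. The series also holds layers 1, 2 and 4 of both cultivars and all 4 layers of Granny Val, a green cultivar of intermediate skin thickness, with 3 libraries in each group. The berries came untreated from one research vineyard, and the stated purpose was to find genes connected with peel thickness, leathery skin, firmness and the slipping of the skin from the pulp. Layers were numbered from the outside inwards. The third tissue in the protocol's list is the mesocarp, whereas the tag of these samples reads endocarp and their source reads peel, so the number is used here. The labels do not say how many berries or plants went into a library. The p-values therefore reflect only the spread among libraries, which may be technical. In the main fit that spread was estimated over all 36 libraries and not over the 6 compared alone.

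The mesocarp is the flesh of the berry, made of large, thin-walled cells that store sugars, organic acids and water. Its firmness depends on cell walls of cellulose, hemicellulose and pectin, which are loosened by enzymes as the berry ripens. In purple grapes the anthocyanin pigments lie mainly in the skin. Because whole tissue was sequenced, fewer cells of a type and less RNA per cell cannot be told apart in any of the values below.

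The files name gene models by chromosome and a running number and do not pair them with product names. Of the 26394 identifiers, 0 matched the reference gene table at hand, so no gene can be assigned a function, no list of cell wall, cuticle, pigment or sugar genes could be run, and no sequence is shown. Gene models are therefore described in groups set by what the counts themselves show. These are absence from a cultivar, the layers in which the cultivars differed, dependence on a single library, abundance and position in the numbering.

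Totals of the 6 libraries lay between 36614131 and 61533809 counts, and CPM below are counts scaled to the TMM-adjusted total. A count of 0 in 1 library allows up to 3 counts, which is 0.0423 to 0.0832 CPM depending on the library. Reads without a gene model made up 10.0% to 11.9% of these libraries. Floors and counting intervals cover counting error only.

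Before the cultivars were compared, the layer identity of each library was examined with gene models that separate the layers in Granny Val, which takes no part in the comparison. In the Granny Val libraries 307 gene models were higher in layer 1 than in each other layer, and 168 were higher in layers 3 and 4 than in layers 1 and 2. Each library was scored by averaging log2 CPM over a set and subtracting the Granny Val average. Alachua replicates 2 and 3 scored -2.01 and -1.57 on the layer 1 set and 2.69 and 2.92 on the inner set. Supreme replicates 1, 2 and 3 scored -1.56, -1.83 and -1.23 on the first and 2.55, 2.49 and 3.13 on the second. Each of those 5 libraries was nearest to the inner layers. Granny Val layer 3, whose libraries helped to define the sets, scored -2.01 to -1.58 on the first and 3.01 to 3.27 on the second.

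Alachua replicate 1 stood apart, at 2.39 on the layer 1 set and -3.66 on the inner set, which put it nearest to Granny Val layer 1. Its log2 CPM correlated across gene models at 0.789 and 0.792 with Alachua layer 3 replicates 2 and 3, which correlated with each other at 0.944. With the 3 Alachua libraries of layer 1 the correlations were 0.894, 0.916 and 0.923. No test is attached to these values, which are across gene models within libraries. The main counts of calls are given below with and without this library. A further 5 libraries of Alachua and Supreme, all in layers 1, 2 and 4, also lay nearest to a layer other than the labelled one.

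**Figure D1:**
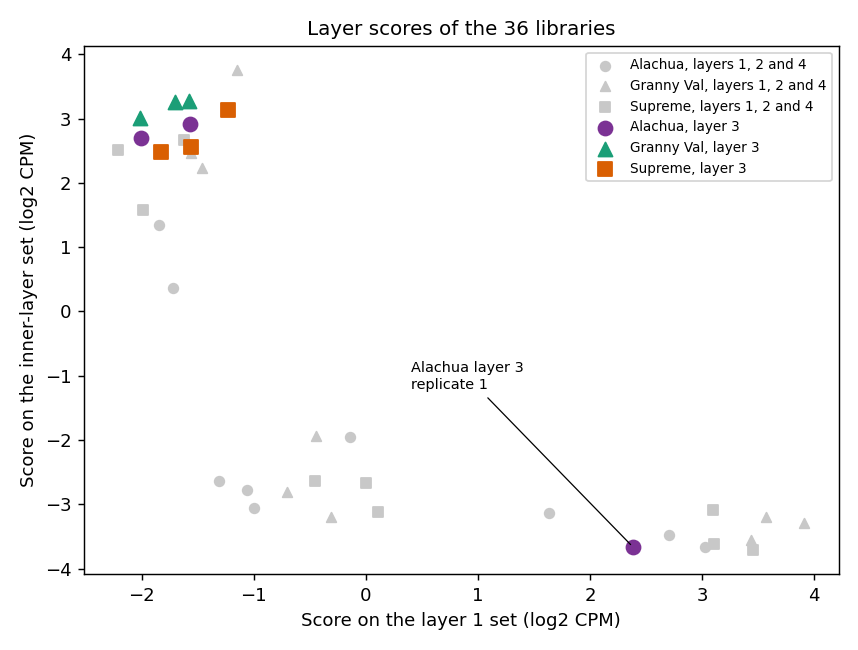
Score of each of the 36 libraries on the layer 1 set (x axis) and on the inner-layer set (y axis), in log2 CPM relative to the Granny Val mean; coloured points are layer 3 libraries and grey points the other layers. Of the 9 layer 3 libraries, 8 lie together at the upper left and Alachua replicate 1, at 2.39 and -3.66, lies with the layer 1 libraries at the lower right. The sets were defined in Granny Val, so the place of its own layer 3 libraries follows from that choice.

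With all libraries, 120 gene models were called higher in Alachua layer 3 and 61 lower, a call being an adjusted p under 0.05 with a change of at least 2-fold. These were 0.624% and 0.317% of the 19241 gene models tested, together 181 or 0.941%. In 161 of the 181 the libraries of the cultivars did not overlap, as was the case for 14.3% of all gene models tested. The median log2 fold change over all gene models was 0.029. Without Alachua replicate 1 there were 54 higher and 44 lower, or 0.273% and 0.222% of 19777 tested, together 98 or 0.496%. The excess of higher over lower calls, 120 to 61, was also smaller without Supreme replicate 1, 2 or 3, at 59 to 37, 32 to 26 and 49 to 44, and larger without Alachua replicate 2 or 3, at 159 to 35 and 201 to 73.

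Both fits shared 70 calls, 46 higher and 24 lower in Alachua. A further 111 were called with all libraries only, and 28 without replicate 1 only. Single libraries of Supreme mattered as well. Without Supreme replicate 1, 2 or 3 there were 96, 58 or 93 calls, and without Alachua replicate 2 or 3 there were 194 or 274. A group set after the values were seen, called in the same direction with all libraries and without each of the 6 in turn, held 48 gene models, 29 higher and 19 lower, each with libraries that did not overlap between the cultivars. Fitted to the 6 libraries alone, which leaves few degrees of freedom for the spread, the same test called 13, 9 higher and 4 lower, and 10 of these were among the 48.

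**Figure D2:**
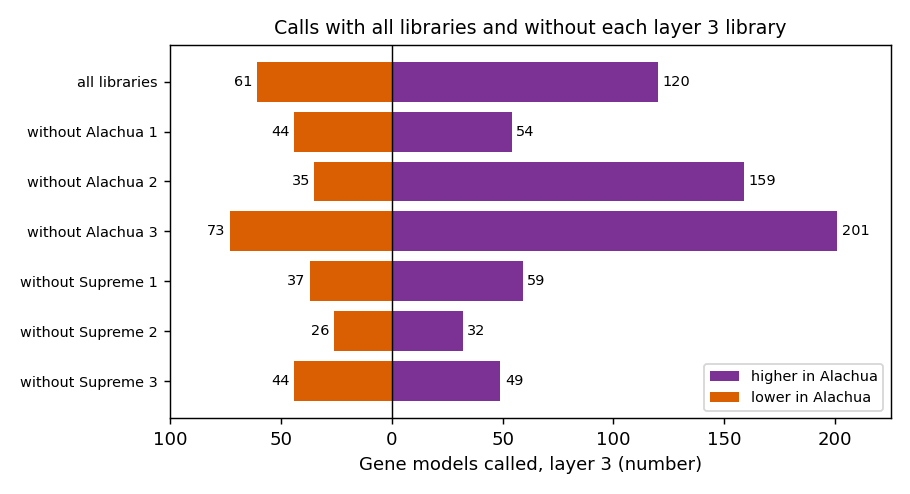
Number of gene models called higher (right) or lower (left) in Alachua than in Supreme in layer 3, with all libraries and without each of the 6 layer 3 libraries. Higher calls run from 32 without Supreme replicate 2 to 201 without Alachua replicate 3, and lower calls from 26 to 73.

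The largest differences that held without Alachua replicate 1 were gene models present in one cultivar and nearly absent from the other. The gene model evm.model.chr4.2350 on chromosome 4 was at 54.1, 15.1 and 27.0 CPM in Alachua replicates 1, 2 and 3 and had 0 counts in each Supreme library. The groups were fully apart, which the choice of the named common calls required. Alachua was at least 1850-fold higher against a floor of 3 counts over the 3 Supreme libraries (adjusted p = 0.0012). Without replicate 1 it was at least 1250-fold higher (adjusted p = 0.0021). In Granny Val it was at 0.124, 0 and 0 CPM.

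On chromosome 16, evm.model.chr16.1566 was at 80.8, 55.6 and 43.0 CPM in Alachua, with a single count over the 3 Supreme libraries. The Alachua to Supreme ratio was 9882 and its 95% counting interval ran from 1773 to 390364 (adjusted p = 1e-09). Without replicate 1 the ratio was 8010 (95% counting interval 1437 to 316435, adjusted p = 1.5e-09). Granny Val also had 1 count in its 3 libraries, so that of these 9 layer 3 libraries the 3 of Alachua were high and the others at or near 0.

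The reverse pattern was seen for evm.model.chr16.352, also on chromosome 16, at 23.7, 29.0 and 18.5 CPM in Supreme, with 2 counts in Alachua and 1 in Granny Val. Supreme exceeded Alachua by a ratio of 1671 (95% counting interval 462 to 13805, adjusted p = 1.5e-05). Without replicate 1 the ratio was 1104 (95% counting interval 305 to 9116, adjusted p = 0.00029). On chromosome 2, evm.model.chr2.328 was at 412, 547 and 249 CPM in Supreme and at 0, 1.41 and 0.0527 CPM in Alachua. On the log2 scale Alachua was lower, at -9.76 with an SE of 1.45 (adjusted p = 0.00033) and at -9.16 with an SE of 1.56 when replicate 1 was left out (adjusted p = 0.0021). Alachua replicate 2 held 51 of the 54 Alachua counts, and without it the fitted change was -13.68 (adjusted p = 8.3e-05), a value that rests on 3 Alachua counts and depends on the prior count. Granny Val, at 159, 293 and 289 CPM, overlapped with Supreme here. With the 6 layer 3 libraries alone and with the 9 of all cultivars, neither evm.model.chr2.328 (adjusted p = 0.20 and 0.055) nor evm.model.chr4.2350 (adjusted p = 0.062 and 0.055) was called.

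The next gene models had more than 3 counts on the lower side, so that their change could be fitted. Chromosome 7 holds evm.model.chr7.1648, at 37.4, 58.6 and 51.4 CPM in Alachua and 0.0282, 0 and 0.0417 CPM in Supreme (log2 fold change 10.86, SE 1.67, adjusted p = 0.00073, and 11.02 and 0.00081 without replicate 1). On chromosome 6, evm.model.chr6.245 was at 55.9, 77.6 and 47.2 CPM against 0.0564, 0.0206 and 0.0209 CPM (log2 fold change 10.65, SE 0.91, adjusted p = 3.6e-08, and 10.70 and 5.2e-08 without replicate 1). Without Supreme replicate 1 the latter change was 11.30. For both, all 3 Alachua libraries were at least 37.4 CPM and every Supreme and Granny Val library was below 0.2 CPM. Lower in Alachua was evm.model.chr4.2552, at 0.0209, 0.25 and 0.105 CPM against 22.9, 37.2 and 18.5 CPM in Supreme (log2 fold change -7.73 with an SE of 1.43, adjusted p = 0.0039, or -7.23 and 0.035 when replicate 1 was left out). Without Alachua replicate 2 it was -8.61 (adjusted p = 0.012), and with the 6 layer 3 libraries alone it was not called (adjusted p = 0.060). Granny Val lay between them at 7.04, 14.6 and 9.28 CPM.

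**Figure D3:**
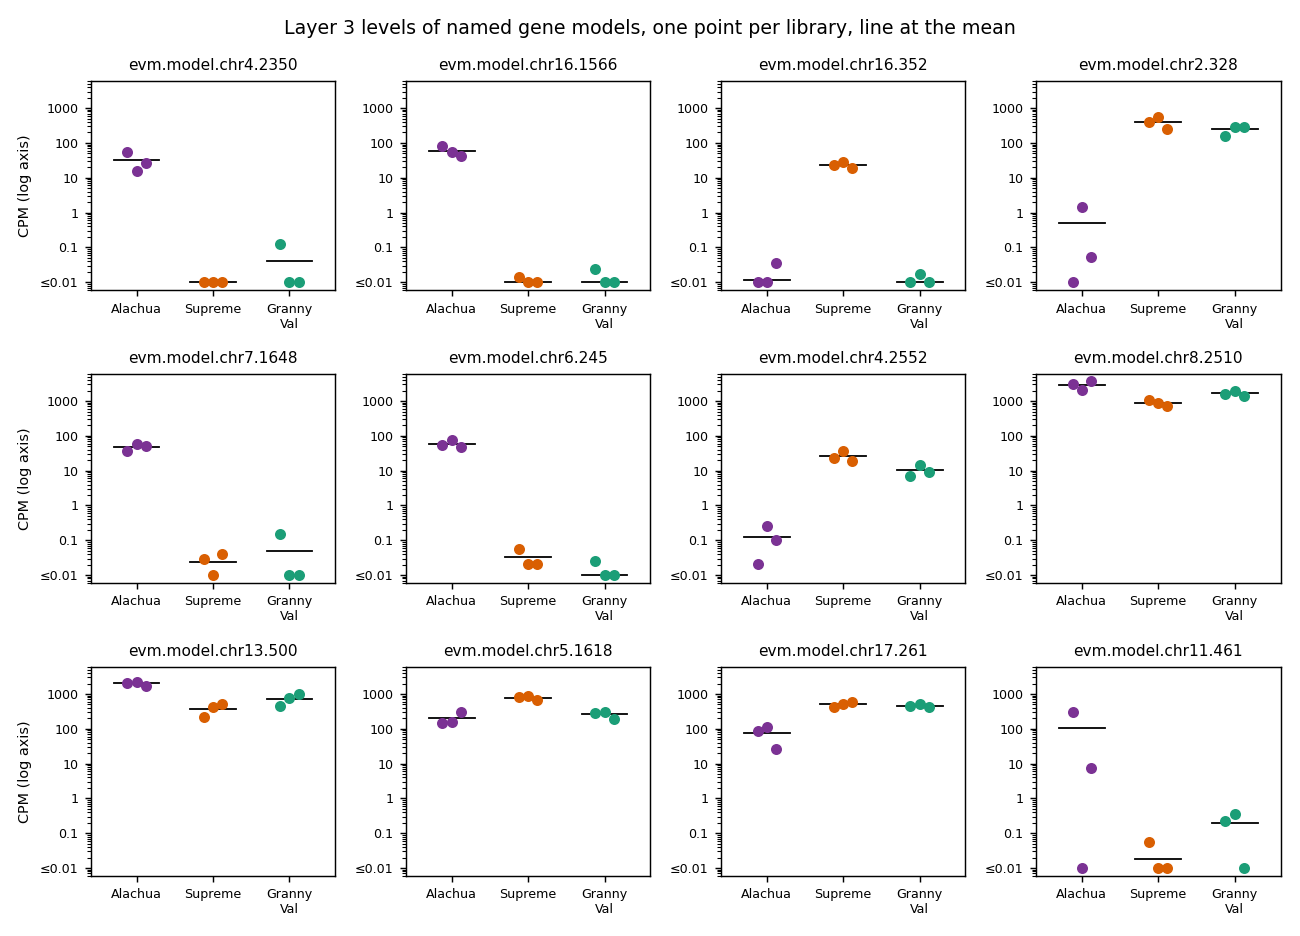
CPM on a log axis in each layer 3 library of Alachua, Supreme and Granny Val for 12 gene models, with a line at each mean; values of 0.01 CPM or less, zeros included, are drawn at 0.01. In 11 panels the Alachua and Supreme points are fully apart, which the choice of these gene models required. In evm.model.chr11.461, added from the calls lost without Alachua replicate 1, they overlap, with Alachua replicate 1 at 299 CPM, replicate 2 at 0 and replicate 3 at 7.69 CPM.

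The next gene models were ranked by abundance and not by fold. The most abundant gene model called higher in Alachua in both fits, evm.model.chr8.2510 on chromosome 8, was at 2996, 2115 and 3797 CPM in Alachua and 1080, 871 and 736 CPM in Supreme. It was 1.73 higher on the log2 scale (SE 0.36, adjusted p = 0.011), and 1.71 without Alachua replicate 1 (adjusted p = 0.036), but was not called without Supreme replicate 2 or 3 (adjusted p = 0.090 and 0.089). Next came evm.model.chr13.500 on chromosome 13, at 2093, 2219 and 1737 CPM against 222, 410 and 516 CPM, a log2 fold change of 2.40 (SE 0.42, adjusted p = 0.0024), and 2.36 without replicate 1 (adjusted p = 0.0081). The 3 Alachua libraries of this gene model varied little, and each was more than 3 times the highest Supreme library.

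On the lower side, evm.model.chr5.1618 on chromosome 5 was at 150, 155 and 296 CPM in Alachua and 805, 860 and 671 CPM in Supreme. The difference was -1.96 on the log2 scale with an SE of 0.36 (adjusted p = 0.0038), or -1.80 without replicate 1 (adjusted p = 0.039), and Granny Val, at 287, 296 and 196 CPM, lay with Alachua. The level of evm.model.chr17.261 on chromosome 17 was 85.5, 112 and 27.2 CPM in Alachua against 430, 508 and 575 CPM in Supreme, a log2 fold change of -2.75 (SE 0.47, adjusted p = 0.0018), or -2.86 without replicate 1 (adjusted p = 0.011). In this case Granny Val, at 466, 504 and 424 CPM, lay with Supreme. Both were called in each of the 6 fits that left out a layer 3 library, as was evm.model.chr13.500. None of these 4 abundant gene models was called with the 6 layer 3 libraries alone (adjusted p from 0.17 to 0.25) or with the 9 of all cultivars (adjusted p from 0.076 to 0.14). The replicate block without Alachua replicate 1 also ended the calls of evm.model.chr5.1618 (adjusted p = 0.060) and evm.model.chr8.2510 (adjusted p = 0.066).

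Among the 70 calls common to both fits, 12 had 0 counts in all 3 libraries of the lower cultivar and another 10 had 1 to 3 counts. Supreme was the cultivar at 0 in 11 of the 12, with lower bounds on the fold from 114 to 1850 (100.2 to 1250 without Alachua replicate 1), and 4 of those 11 also had 0 counts in the 3 layer 3 libraries of Granny Val. Of the 70, 46 were higher in Alachua. Among all 181 calls Supreme was at 0 in 15 and Alachua in 8. The share of all gene models tested with 0 counts in either cultivar was not computed, so no excess of absence from Supreme can be read from these counts. The median level on the higher side was 34.2 CPM over the 70, with a range from 0.929 to 2969 CPM. The change exceeded 64-fold in 35 of them and was under 4-fold in 18. In the mean of its 3 layer 3 libraries Granny Val was nearer to Alachua on the log2 scale in 24 of the 70 and nearer to Supreme in 46. Over all gene models tested it was nearer to Alachua in 41.8%.

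The 111 calls lost without Alachua replicate 1 were 74 higher and 37 lower in Alachua. Of the 74 higher in Alachua, replicate 1 was the highest of the 6 libraries in 69 and held more than 50% of the summed Alachua CPM in 55. Among the 46 common higher calls these counts were 23 and 13. Choosing calls that were lost without replicate 1 favours such gene models and a fall of their fold change. The shares over all gene models tested were not computed. The median log2 fold change of the 74 fell from 3.68 to 1.65 without it, and 52 of them then had an unadjusted p under 0.05. Among the 74 were 11 gene models of the Granny Val layer 1 set, which made up 1.6% of all gene models tested. Over the whole layer 1 set the median log2 fold change of Alachua over Supreme was 1.72 with all libraries and -0.26 without replicate 1. Over the inner set it was -0.51 and 0.036. Of the 37 lower in Alachua, replicate 1 was the lowest library in 14, the median log2 fold change was -1.95 with it and -1.69 without it, and all 37 kept an unadjusted p under 0.05.

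The 4 gene models named from the lost calls show both patterns. A level of 1187 CPM in Alachua replicate 1 stood against 0 and 0.457 CPM in replicates 2 and 3 for evm.model.chr6.1593 on chromosome 6, while Supreme was at 0, 0 and 0.146 CPM. Its log2 fold change of 13.05 (SE 3.22, adjusted p = 0.043) became 2.42 (adjusted p = 0.99). In layer 1 this gene model was at 483 ± 375 CPM in Alachua, 230 ± 268 CPM in Supreme and 670 ± 130 CPM in Granny Val (SD, n = 3 each). On chromosome 11, evm.model.chr11.461 was at 299, 0 and 7.69 CPM in Alachua and 0.0564, 0 and 0 CPM in Supreme, and its log2 fold change of 11.96 (adjusted p = 0.024) became 7.21 (adjusted p = 0.22). Without all 6 libraries out of place, replicate 1 among them, it was 7.23 and the call stood (adjusted p = 0.032), whereas evm.model.chr6.1593 was not called there (adjusted p = 0.81). The layer 1 level of evm.model.chr11.461 was 354 ± 181 CPM in Alachua, 57.3 ± 50.8 CPM in Supreme and 131 ± 47.8 CPM in Granny Val (SD, n = 3 each). In both, the high layer 3 level came from the library that scored with layer 1, and leaving out any 1 Supreme library also ended the call (adjusted p from 0.11 to 0.25).

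Calls lower in Alachua were also lost. The gene model evm.model.chr13.2427 on chromosome 13 was at 6.45, 67.3 and 5.51 CPM in Supreme and 0.146, 0.638 and 0.369 CPM in Alachua. Its log2 fold change of -6.10 (adjusted p = 0.025) was -5.73 without Alachua replicate 1 (adjusted p = 0.15) and -3.97 without Supreme replicate 2 (adjusted p = 0.27), and the call was also lost without Alachua replicate 2 or 3 (adjusted p = 0.056 and 0.068). On chromosome 9, evm.model.chr9.61 was at 13.9, 26.0 and 2.75 CPM in Supreme and 0, 0 and 0.176 CPM in Alachua (log2 fold change -7.77, adjusted p = 0.034, and -7.24 and 0.16 without Alachua replicate 1). It lost its call without Alachua replicate 1 or 2 or Supreme replicate 1 or 2 (adjusted p up to 0.16). The cultivars did not overlap in either gene model.

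**Figure D4:**
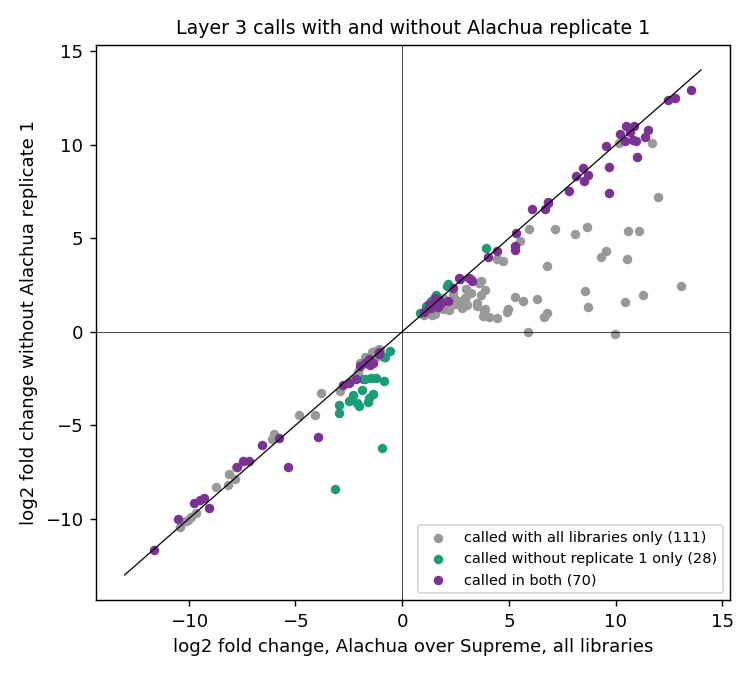
Fitted log2 fold change of Alachua over Supreme in layer 3 with all libraries (x axis) and without Alachua replicate 1 (y axis) for the 209 gene models called in either fit; the diagonal marks equal values, and values of gene models with almost no counts in a cultivar depend on the prior count of the fit. The 70 common calls follow the diagonal, whereas many of the 74 lost higher calls lie far below it.

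Leaving out Alachua replicate 1 also brought up 28 gene models, 8 higher and 20 lower in Alachua, of which 24 had an unadjusted p under 0.05 with all libraries. On chromosome 4, evm.model.chr4.2645 was at 78.7 CPM in Alachua replicate 1 and at 0.139 and 1.21 CPM in replicates 2 and 3, against 34.8, 52.0 and 67.8 CPM in Supreme. Replicate 1 was the highest of the 6 libraries and the other Alachua libraries were the lowest, so the log2 fold change was -0.95 (adjusted p = 0.83) with it and -6.22 (SE 1.03, adjusted p = 0.0017) without it. The level of evm.model.chr8.1637 on chromosome 8 was 6.50, 0.305 and 1.05 CPM in Alachua and 11.8, 10.1 and 9.89 CPM in Supreme (log2 fold change -3.96 without replicate 1, SE 0.58, adjusted p = 0.00036, and -2.01 with it, adjusted p = 0.12).

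Higher in Alachua without that library was evm.model.chr17.94 on chromosome 17, at 3.85, 33.6 and 50.8 CPM against 3.21, 0.413 and 2.07 CPM in Supreme (log2 fold change 4.46, SE 0.98, adjusted p = 0.027). In layers 1, 2 and 4 of Alachua it was at 3.76 ± 3.08, 2.94 ± 1.43 and 1.88 ± 1.27 CPM (SD, n = 3 each), so replicates 2 and 3 of layer 3 were above the means of those layers. Granny Val was at 20.5 ± 2.90, 12.7 ± 8.15, 26.7 ± 13.6 and 16.1 ± 10.9 CPM in layers 1 to 4 (SD, n = 3 each). The level of evm.model.chr19.324 on chromosome 19 was 78.4, 467 and 365 CPM in Alachua against 62.8, 75.1 and 69.8 CPM in Supreme (log2 fold change 2.57, SE 0.52, adjusted p = 0.013). With all libraries neither was called, at log2 fold changes of 3.95 and 2.13 (adjusted p = 0.051 and 0.053), and each remaining call rests on 2 Alachua libraries.

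Layers 1, 2 and 4 hold the same 2 cultivars in other libraries and show how far the layer 3 differences extended through the berry. In those layers 85, 175 and 464 gene models were called between Alachua and Supreme, or 0.442%, 0.91% and 2.41% of those tested. Without the 6 libraries of the series that lay nearest another layer, which leaves 1 Alachua library in layer 4, layers 1, 2, 3 and 4 had 103, 82, 126 and 96 calls, or 0.502%, 0.399%, 0.614% and 0.468% of 20529 tested. Of the 70 common calls of layer 3, 41 were called in the same direction in layer 1, 50 in layer 2 and 63 in layer 4. In all 3 of those layers 38 of the 70 were called, and in none of them 6. Of the 46 higher in Alachua, the median log2 fold change was 6.76 in layer 3 (6.73 without Alachua replicate 1) and 5.84, 6.25 and 6.74 in layers 1, 2 and 4. Of the 24 lower, it was -4.65 in layer 3 (-5.64 without Alachua replicate 1) and -3.32, -3.97 and -2.64 in the other layers. The layer 3 medians were the same with gene models at 0 counts set to their bound.

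Of the 111 calls lost without Alachua replicate 1, 30 higher and 11 lower were called in no other layer. In layers 1, 2 and 4, 14, 15 and 62 of the 111 were called in the same direction. Of the 74 higher in Alachua, 5 were called in layer 1, 3 in layer 2 and 41 in layer 4. In layer 4 the scores of Alachua replicates 2 and 3 were nearest to layer 2, at -1.06 and -1.0 on the layer 1 set and -2.78 and -3.06 on the inner set. Without the 6 libraries out of place 12 of the 111 were called there, while the calls over all gene models in layer 4 fell from 464 to 96. Without those 6 libraries, which include Alachua layer 3 replicate 1, 14 of the 111 were called in layer 3. Of the 70 common calls 66 were then called in layer 3, 36 in layer 1, 35 in layer 2 and 32 in layer 4, and 22 in all of the other 3 layers. The part of cell layer composition in the calls was not tested.

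**Figure D5:**
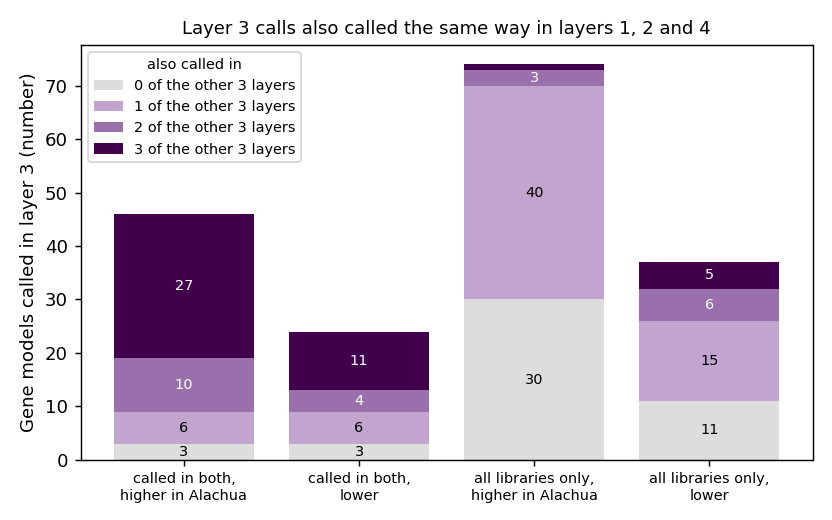
Number of layer 3 calls by how many of layers 1, 2 and 4 also showed a call in the same direction, for calls common to both fits and calls with all libraries only. Among the 46 common higher calls 27 were called in all 3 other layers, whereas among the 74 higher calls with all libraries only, 1 was.

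The gene models named above illustrate the spread through the layers. The level of evm.model.chr16.1566 in Alachua was 68.3 ± 9.46, 50.9 ± 7.70, 59.8 ± 19.3 and 58.8 ± 8.76 CPM in layers 1 to 4 (SD, n = 3 each), a range smaller than the spread within layer 3. Similarly evm.model.chr6.245 was at 50.8 ± 4.40, 55.6 ± 12.9, 60.2 ± 15.7 and 53.3 ± 0.444 CPM. In Supreme evm.model.chr16.352 was at 21.4 ± 1.85, 16.9 ± 7.18, 23.7 ± 5.27 and 26.4 ± 7.24 CPM. Each of these was called between the cultivars in all 4 layers.

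Others varied more. The Granny Val level of evm.model.chr2.328 was 29.0 ± 20.3 CPM in layer 1 and 247 ± 76.1 CPM in layer 3, while Supreme was at 207 ± 141 and 403 ± 149 CPM and Alachua stayed below 1.5 CPM in the mean of every layer. The abundant evm.model.chr8.2510 was called in layers 3 and 4 (log2 fold change 1.33 in layer 4, adjusted p = 0.037) and had log2 fold changes of 0.48 and 0.96 in layers 1 and 2 (adjusted p = 0.80 and 0.19). In Supreme its level was 1639 ± 158, 1541 ± 117, 896 ± 173 and 1289 ± 632 CPM in layers 1 to 4. The difference for evm.model.chr4.2350 was 5.86 on the log2 scale in layer 1 (adjusted p = 0.051), where Supreme was at 0.722 ± 1.20 CPM, and it was called in layer 4 (adjusted p = 0.00064), where Supreme had 1 count.

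An interaction tested whether the difference between the cultivars in layer 3 departed, in either direction, from its mean in layers 1, 2 and 4. The edgeR test called 0 gene models (0%), with 966 at an unadjusted p under 0.05, and it also called 0 without Alachua replicate 1, with 382 at an unadjusted p under 0.05. DESeq2 on all 36 libraries, Alachua replicate 1 included, called 356. Among the alternatives run with edgeR, the fit without Alachua replicate 3 called evm.model.chr13.614 (adjusted p = 0.049) and that without all 6 libraries out of place called evm.model.chr20.527 (adjusted p = 0.038). With all libraries their adjusted p were 0.77 and 0.59. For evm.model.chr13.614 Alachua layer 3 was at 0, 0 and 3.21 CPM against 14.5, 46.0 and 17.0 CPM in Supreme. Without replicate 3 Alachua was at 0 there, and the fitted difference of -11.98 depends on the prior count. For evm.model.chr20.527 Alachua layer 3 was at 32.2, 63.4 and 62.7 CPM against 24.4, 28.9 and 32.8 CPM in Supreme. Its log2 difference of -4.04 with all libraries means a smaller excess of Alachua in layer 3 than on average elsewhere. For evm.model.chr17.94 replicates 2 and 3 of Alachua layer 3 stood above the other Alachua layers, whereas replicate 1, at 3.85 CPM, lay within their range. With all libraries, replicate 1 included, the difference for this gene model was 4.63 on the log2 scale (adjusted p = 0.59).

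The 181 calls lay on all 20 chromosomes, from 3 of 884 tested on chromosome 12, or 0.339%, to 15 of 652 on chromosome 15, or 2.30%. Over all gene models tested the share was 0.941%. The 70 common calls ranged from 0 of 1267 tested on chromosome 14 to 6 of 764 on chromosome 16, or 0.785%. Chromosome 8 held the most in number, 8 of 1259, or 0.635%. No test was made between chromosomes. In the numbering of the identifiers 15 pairs of called gene models on a chromosome were at most 5 numbers apart, 12 in the same direction and 3 in opposite directions. How many such pairs 181 gene models drawn from all those tested would form was not computed. The split of the calls, 120 higher and 61 lower, also favours pairs in the same direction. In 5 of the 15 both members were among the 70 common calls. That the numbers follow the order along the chromosome is not stated in the sources used here. Nearby members of a gene family can share reads, and counts of near-identical copies are uncertain.

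Some such pairs are given as examples chosen after their values were seen. On chromosome 15, evm.model.chr15.1962 was at 0.752, 6.04 and 4.88 CPM in Alachua and evm.model.chr15.1965 at 13.9, 1.80 and 5.74 CPM, and both had 0 counts in the layer 3 libraries of Supreme and Granny Val. They were at least 211-fold and 419-fold higher in Alachua (adjusted p = 0.0046 for each), and at least 297-fold and 235-fold higher without replicate 1 (adjusted p = 0.0043 and 0.012). The order of the Alachua libraries was opposite in the pair, with replicate 1 lowest for the first and highest for the second.

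On chromosome 16 the pair went in opposite directions. Beside evm.model.chr16.1566, which was high in Alachua, evm.model.chr16.1563 was at 20.1, 13.4 and 13.03 CPM in Alachua and 67.8, 82.3 and 108 CPM in Supreme (log2 fold change -2.47, SE 0.41, adjusted p = 0.0012, and -2.71 and 0.0027 without replicate 1), with Granny Val at 80.6, 77.1 and 110 CPM. The consecutive evm.model.chr10.1132 and evm.model.chr10.1133 on chromosome 10 were both lower in Alachua. The first was at 14.2, 2.61 and 1.21 CPM in Alachua and 103, 86.5 and 89.2 CPM in Supreme (log2 fold change -3.95, adjusted p = 0.012, and -5.62 and 0.0017 without replicate 1). The second was at 5.46, 72.1 and 56.0 CPM against 570, 688 and 594 CPM (log2 fold change -3.80, adjusted p = 0.014, and -3.28 and 0.077 without replicate 1). Granny Val lay far below Supreme in this pair, at 7.68, 13.5 and 10.7 CPM and at 23.7, 50.2 and 45.5 CPM.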

How the data were processed

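RNA was enriched for polyadenylated transcripts and sequenced from directional libraries, per the labels' protocols. The authors deposited raw read counts for each gene model, with a separate table for every library. Their processing notes name cutadapt, STAR, HTSeq 0.11.2, SAMtools and DESeq2 without a role or order. The build, annotation and strand setting were not given in the sources used here. Reads of overlapping genes on either strand therefore cannot be told apart. Of 26394 gene models, 22565 had a count, and the 5 special counter lines were left out. Their largest share was reads outside gene models, 7.73% to 14.6% per library.

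CPM and fold changes were computed here with edgeR 4.0.16 in R 4.3.3, using TMM scaling and filterByExpr by group. A model of 12 group means was fitted to all 36 libraries (24 residual degrees of freedom), so that the groups share one estimate of spread. Contrasts were tested with the quasi-likelihood F test with Benjamini-Hochberg adjustment over all gene models tested. The procedure was tested on simulated data. Fold bounds use a floor of 3 counts summed over a group. DESeq2 1.42.0 and other filters, scalings, covariates and library sets were alternatives.

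The comparison, groups and naming lists were chosen with earlier results of these data known. Each list took at most 2 gene models higher and 2 lower, with a mean of at least 10 CPM on the higher side. Calls common to the fits with and without Alachua layer 3 replicate 1, with no overlap between cultivars, were ranked by fold change over all, by fold change among those with more than 3 counts on the lower side, and by abundance. Lost and gained calls were ranked by fold change. A list of gene models called in layer 3 and in the interaction was empty. The replicate numbers were not treated as pairs.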

Additional observations from a re-analysis of the deposited data

How the results depend on the processing

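Leaving out each layer 3 library in turn gave 32 to 201 higher calls, 26 to 73 lower calls, 0 to 1 interaction calls and 32 to 44 layer 3 calls shared by all other layers, against 120, 61, 0 and 44 with all libraries. Without Alachua replicate 1 but on the same gene models, an alternative chosen after seeing the data, there were 51 higher calls. Without all libraries out of place there were 68 higher calls, 1 interaction call and 23 calls shared by all layers. The 6 layer 3 libraries alone gave 9 higher and 4 lower, and the 9 of all cultivars 11 and 8; both fits have few degrees of freedom for the spread. Libraries whose names begin with a number gave 54 higher, 37 lower and 15 shared by all layers. DESeq2 called 659 higher and 212 lower, 356 in the interaction and 93 shared by all layers; these include all 181 edgeR calls, and the cause was not tested. RLE scaling gave 122 and 61, no filter on low counts 115 and 59. In layer 3, same-numbered libraries of the 2 cultivars deviated from their group means with correlations of -0.037, 0.143 and -0.106. Libraries of different numbers had correlations from -0.172 to 0.251. With 3 libraries per group, 1 of them Alachua replicate 1, these values cannot show whether the numbers pair libraries. The replicate block gave 82 higher and 48 lower calls, 127 of them also called without it, and the replicate block without Alachua replicate 1 gave 48 and 32. For the 19 named gene models, 263 of 339 recomputed values kept their direction and side of the threshold, 55 lost a call, 21 gained one and 0 changed sign. This tally does not measure robustness. The gene models were chosen by whether their call held without Alachua replicate 1, and the alternative without the 2-fold minimum repeats the main fit. Depth limits what a count of 0 allows to 0.0423 to 0.0832 CPM per library.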
